A study of Caenorhabditis elegans with 2 samples.

Results

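The genes described here are mom-1, hmp-2, vang-1 and pop-1, 4 Wnt and cell polarity genes of C. elegans among 19973 nuclear protein-coding genes. They were chosen by their peaks in a ChIP-seq experiment on SEM-2, the SoxC transcription factor of the worm. Each had a strong peak with its summit 293 to 1419 bp upstream of its 5′ end. For mom-1 and hmp-2, another protein-coding gene had a 5′ end nearer to that summit. The presence of those peaks is a description and was not tested. All peaks with a summit from 3000 bp upstream of a gene's 5′ end to its 3′ end were taken from each deposited list. Those windows held 6 peaks of the thresholded list, out of 617 on the nuclear chromosomes and 634 in all.

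ChIP-seq recovers the DNA bound by a tagged protein and shows it as peaks, whose summits mark the highest signal. The strain was OP701, with the genotype unc-119(tm4063) and the transgene wgIs701, which holds sem-2::TY1::EGFP::3xFLAG together with unc-119(+) as its marker. SEM-2 is thus tagged with eGFP at its C-terminus. The genotype names no sem-2 mutation, and the labels name no promoter for the transgene. The 2 biological replicates, which bear the numbers 1 and 3, form 1 group, and each was made from whole mixed-stage embryos of both sexes with a labelled age of 1 hour, obtained by bleaching. DNA fragments of 200 to 800 bp were made by sonication, and those bound to the tag were pulled down with anti-GFP antibody. Whole embryos were pooled, so the cells in which a site was bound are not known. Each replicate gave 30000 peaks ranked by the peak caller's signal value, as did the reads of both together (the combined list), and the thresholded list was the 634 strongest of the combined list. The signal values are the authors' own. They were used to rank peaks within a list, and a rank of 1 is the strongest. Depth is unknown for both replicates, because the lists hold no read counts.

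In Wnt signalling a secreted, lipid-modified ligand binds a Frizzled receptor and, through Dishevelled, changes the level or place of beta-catenin, which acts with a TCF factor on target genes. In the early C. elegans embryo this pathway sets asymmetric divisions along the anterior-posterior axis, among them the division that separates endoderm from mesoderm. The genes here stand at different steps. MOM-1 is the Porcupine acyltransferase that prepares Wnt ligands for secretion, VANG-1 is the Van Gogh protein of planar polarity, HMP-2 is the beta-catenin of adherens junctions, and POP-1 is the TCF factor, an HMG-box protein like the Sox factors.

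Sequences are shown for the peak inside mom-1 and the peak upstream of vang-1, both on chromosome X, as the first lies away from any RNA gene and the second inside RNA genes. They are the 201 bases around each summit (mom-1 at chrX:6296464-6296664 and vang-1 at chrX:2885465-2885665, WBcel235, plus strand, RefSeq), with the 101 bases searched for motifs in capitals.
mom-1 intron: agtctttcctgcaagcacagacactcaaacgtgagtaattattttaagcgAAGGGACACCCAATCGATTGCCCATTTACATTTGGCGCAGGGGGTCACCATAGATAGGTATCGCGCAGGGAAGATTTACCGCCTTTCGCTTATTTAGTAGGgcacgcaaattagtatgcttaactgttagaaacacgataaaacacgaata
vang-1 upstream: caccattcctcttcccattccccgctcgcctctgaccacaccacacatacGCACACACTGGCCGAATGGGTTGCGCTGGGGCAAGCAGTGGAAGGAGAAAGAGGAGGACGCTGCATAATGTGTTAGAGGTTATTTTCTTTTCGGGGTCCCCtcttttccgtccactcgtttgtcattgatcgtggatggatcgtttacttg

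The upstream peak of mom-1 lay at T07H6.t2, a gene for tRNA-Ala in RefSeq (WBGene00023133, 72 bp), with its summit 25 bp upstream of this gene's 5′ end. The same 72 bases occur in 8 of 612 nuclear tRNA genes. Of these 8 genes, 4 had a thresholded summit within 100 bp, at ranks 31, 68, 318 and 387, and the mom-1 peak is the second of them. Reads that fall wholly inside the tRNA gene cannot be assigned to a single copy. The 101 bases around the mom-1 summit occur once in the nuclear genome, as do those around the other 5 summits. Only exact copies of the full 101 bases were counted, and whether shorter reads there have a single place was not tested.

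mom-1 had the strongest peak of the set. The gene (WBGene00003394) lies on chromosome X, 6293112 to 6298305, on the plus strand. Its upstream peak had a signal of 566 in the combined list, at rank 68, and its summit was intergenic, 738 bp upstream of the mom-1 5′ end. It ranked 68 in replicate 1 with a signal of 385, and 79 in replicate 3 with a signal of 171. Both replicates thus placed it among their 100 strongest peaks, with summits 16 and 6 bp from the combined summit. Annotated 5′ ends of 3 genes compete for it. The tRNA gene was nearest at 25 bp. It was followed at 642 bp by lev-9, which encodes a secreted protein that clusters acetylcholine receptors and is read on the opposite strand, and then by mom-1.

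The peak inside mom-1 was found in replicate 3 alone. It lay in intron 7 of the 8-exon transcript, 3452 bp past the 5′ end (chromosome X, 6296346 to 6296781), with a signal of 159 and rank 577 in the combined list. In replicate 3 it ranked 339 with a signal of 88.7. Replicate 1 had no overlapping peak among its 30000, and its nearest summit was 4206 bp away, at the tRNA gene. Of the 617 nuclear thresholded peaks, 3 had no overlapping peak in replicate 1 (0.486%), and this was among them. The carboxylesterase gene cest-16 had the nearest 5′ end, at 3378 bp, slightly nearer than that of mom-1, and no RNA gene lay within 100 bp. The other combined peak in the mom-1 window, 1598 bp upstream, lay in the coding sequence of lev-9 at rank 22419, 218 bp from the lev-9 5′ end and at the ncRNA gene T07H6.7.

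For vang-1 (WBGene00015171, chromosome X, 2885858 to 2890681, plus strand) the single thresholded peak was the closest of the 6 to a member's 5′ end. Its summit was 293 bp upstream (peak at 2885347 to 2885782), with a signal of 227 and rank 301. Replicate 1 gave a signal of 131 at rank 375 and replicate 3 a signal of 94.2 at rank 282. The summit of replicate 1 was 85 bp from the combined summit, towards vang-1, and that of replicate 3 was 14 bp away on the other side. Of all protein-coding genes, vang-1 had the nearest 5′ end. The combined summit lay inside 2 overlapping ncRNA genes, F53B3.12 on the minus strand (5′ end at 13 bp) and F53B3.10 on the plus strand (5′ end at 43 bp). Another, F53B3.11, had its 5′ end 253 bp from the combined summit. The replicate 3 summit also lay inside F53B3.12 and F53B3.10, whereas that of replicate 1 lay outside both, though within 100 bp of each. The remaining 3 combined peaks were in vang-1 coding sequence at ranks 16392, 16416 and 29076, far below the upstream peak. Further out, the first summit beyond the window lay 6030 bp upstream of vang-1, at rank 680 with a signal of 149.

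hmp-2 (WBGene00001979, chromosome I, 14738882 to 14742671, plus strand) had a peak with nearly equal ranks in every list. It ranked 199 in the combined list (signal 304), 201 in replicate 1 (signal 200.0) and 193 in replicate 3 (signal 108), and the replicate summits were 18 and 10 bp from the combined one. The peak (14737245 to 14737680) was intergenic, and its summit was 1419 bp upstream of hmp-2 but 239 bp upstream of K05C4.7, an Armadillo repeat protein gene per RefSeq. K05C4.7 lies between the summit and hmp-2 on the same strand, and 85 bases separate the genes. No annotated RNA gene lay within 100 bp of this summit. Ensembl also lists an hmp-2 transcript that starts 709 bp further downstream.

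The next peak of hmp-2 was below the thresholded list. It lay in hmp-2 coding sequence, 2284 bp past the 5′ end, with a signal of 134 and rank 944, and the 5′ end of K05C4.5 was nearer to it, at 1599 bp. Overlapping peaks ranked 1725 in replicate 1 and 1187 in replicate 3. The other 5 combined peaks ranked from 13204 to 29662. They included a summit 4 bp from the 5′ end of K05C4.7, at rank 14382, and a summit in K05C4.7 coding sequence, 372 bp upstream of hmp-2. K05C4.5 had the nearest 5′ end for 2 of the 5, at 1400 and 594 bp.

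pop-1 (WBGene00004077, chromosome I, 2822243 to 2830311, minus strand) carried many peaks of middle rank, several of them nearer to the 5′ end of another gene. Its strongest combined peak had a signal of 179 at rank 446 and lay in intron 2 of the 4-exon transcript, 3232 bp past the 5′ end (2827033 to 2827178). The summit was 6 bp from the 5′ end of the snoRNA gene W10C8.17, which lies in that intron on the same strand. It ranked 285 in replicate 3 (signal 94.1) and 1069 in replicate 1 (signal 80.7), outside the 634 strongest there. The summits of both replicates were within 4 bp of the combined summit.

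The upstream peak of pop-1 had a signal of 168 at rank 506, with its summit 1328 bp from the 5′ end (2831421 to 2831856). Its rank was 616 in replicate 1 (signal 99.4) and 614 in replicate 3 (signal 74.5), inside the 634 strongest of each by a small margin. Among protein-coding genes pop-1 had the nearest 5′ end. The summit lay inside the ncRNA gene W10C8.8 on the plus strand and 40 bp from the 5′ end of W10C8.12 on the minus strand. A further ncRNA gene, W10C8.14, had its 5′ end 1304 bp away, beside that of pop-1.

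The next pop-1 peak missed the thresholded list narrowly. It lay in the 3′ UTR, 7558 bp past the 5′ end, with a signal of 150.0 at rank 662, against a lowest thresholded signal of 153. It ranked 747 in replicate 1 and 7908 in replicate 3, and the ncRNA gene W03D8.13 lay at its summit. The protein-coding gene W03D8.3 had its 5′ end 619 bp from this summit, far nearer than that of pop-1. W03D8.3 was also nearest, at 1575 to 3755 bp, for the next 2 coding-sequence peaks and for an intron peak at rank 3027. A pair of peaks in pop-1 coding sequence ranked 1020 and 1024, and each had overlapping peaks in both replicates at ranks from 1156 to 1869. An intron peak 993 bp past the 5′ end ranked 1791 in the combined list and 923 in replicate 1 but had no counterpart in replicate 3. The peak nearest to the pop-1 5′ end, 78 bp upstream and at W10C8.14, ranked only 3765. The window's outermost summits were 2848 bp upstream inside it (rank 9011) and 3901 bp upstream outside it (rank 2328).

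**Figure D1:**
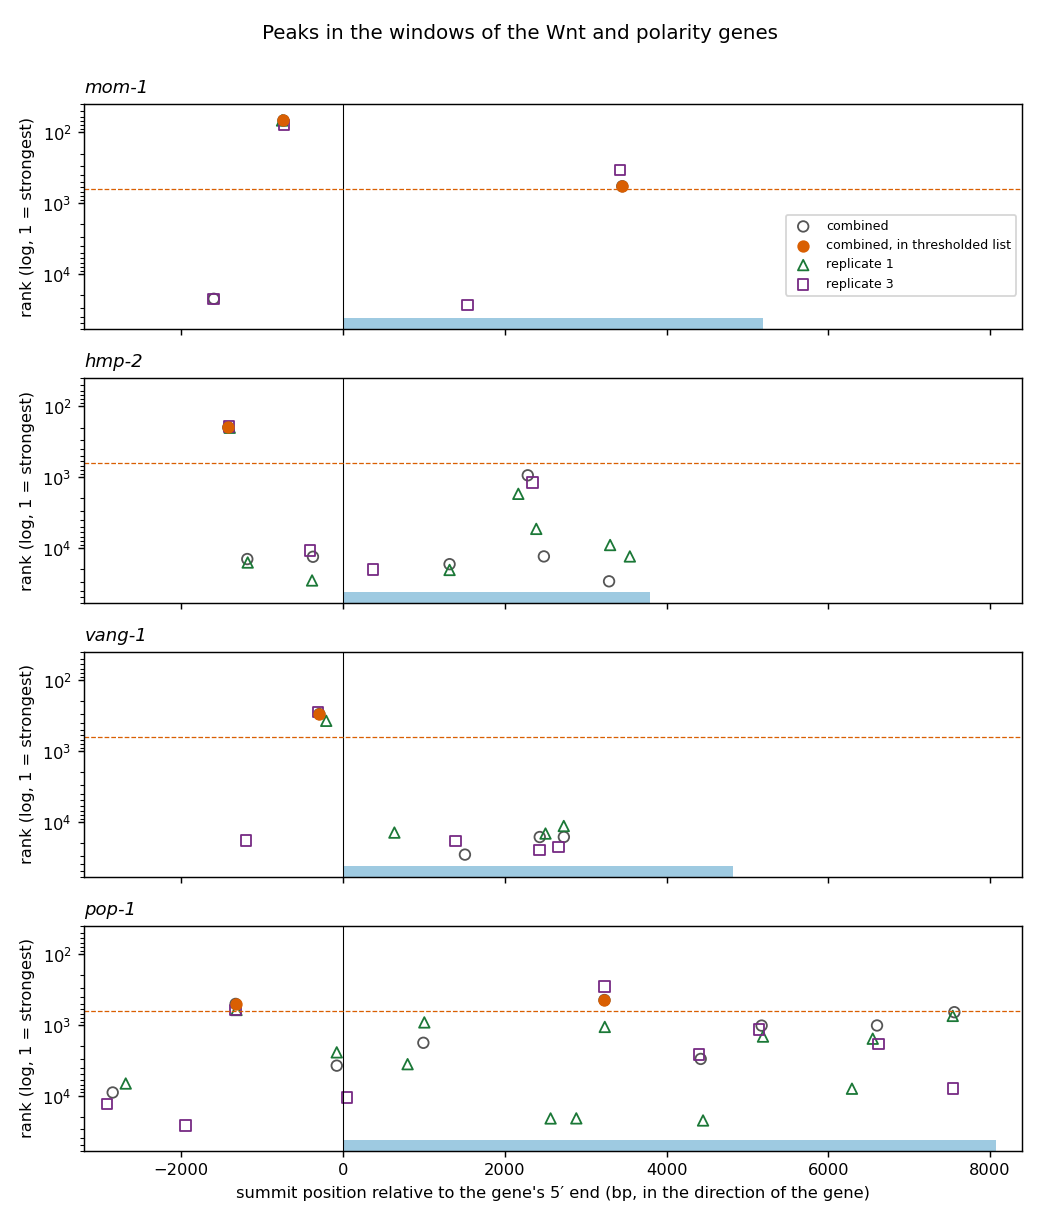
Position of every peak summit in the window of each gene (horizontal axis, bp from the 5′ end in the direction of the gene) against its rank in its own list (vertical axis, log scale, strongest at the top); the blue bar is the gene and the dashed line is rank 634. Filled points are the 6 thresholded peaks, and pop-1 shows a row of peaks between ranks 446 and 3765 where the other genes show 1 or 2 strong peaks above weak ones.

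The number of peaks per window differed among the 4 genes. The combined list had 3 peaks in the mom-1 window, 4 for vang-1, 7 for hmp-2 and 9 for pop-1. The numbers were 1, 4, 8 and 13 in replicate 1 and 4, 5, 4 and 9 in replicate 3. Per kb of window in the combined list, this came to 0.366 for mom-1, 0.511 for vang-1, 1.03 for hmp-2 and 0.813 for pop-1. The median over the windows of all genes was 0.234 per kb and the highest decile began at 0.724, so hmp-2 and pop-1 stood above that bound and mom-1 and vang-1 below it. In replicate 3 hmp-2, at 0.589 per kb, was below the bound of 0.69, while pop-1 stayed above it at 0.813. The members' counts include the peaks for which they were chosen, whereas 6997 of all 19973 genes had no combined peak in their window. Some neighbouring combined peaks of hmp-2 and of vang-1 also overlapped each other.

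Most of these peaks overlapped a peak in each replicate's list. The combined list was made from the reads of both replicates, so such overlap is not independent recurrence. Of the 23 combined peaks in the 4 windows, 17 (73.9%) overlapped a peak in both replicate lists, and each of the others overlapped a peak in 1 of them. Of all 29982 nuclear combined peaks, 49.9% overlapped a peak in both, and the comparison was not matched for rank. The strong peaks for which the genes were chosen are among the 17. Neighbouring combined peaks could overlap the same replicate peak, so these are not 17 separate replicate peaks. Among the 6 thresholded peaks, 4 overlapped one of the 634 strongest peaks of both replicates (the upstream peaks of mom-1, hmp-2, vang-1 and pop-1). The corresponding count for all nuclear thresholded peaks was 349 of 617 (56.6%). The gene-body peaks of mom-1 and pop-1 did so in replicate 3 alone. The −log10 q-values were deposited per list: all 4 upstream peaks had 2.56 in replicate 1, the highest of that list. Weaker peaks shared that value, such as the pop-1 3′ UTR peak at rank 747 in replicate 1. In replicate 3 the mom-1 upstream peak had 2.56. The other 5 thresholded peaks ranged from 2.05 for the pop-1 upstream peak to 2.35 for the mom-1 intron peak.

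**Figure D2:**
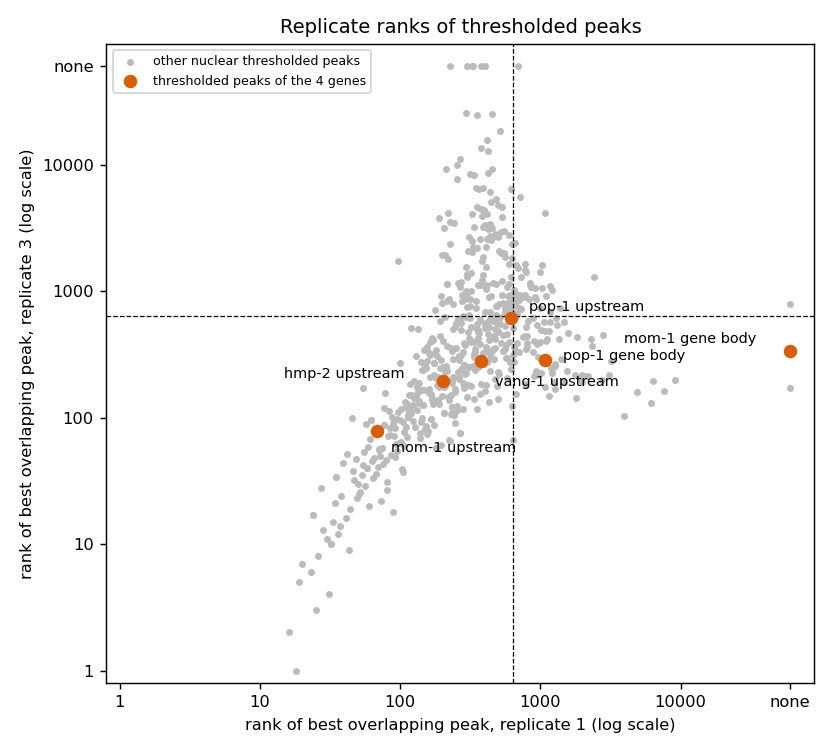
Rank of the best overlapping peak in replicate 1 (horizontal axis, log scale) and in replicate 3 (vertical axis, log scale) for the 617 nuclear thresholded peaks; dashed lines mark rank 634 and "none" means no overlapping peak. The upstream peaks of the 4 genes (orange) have similar ranks in both replicates, from 68 and 79 for mom-1 to 616 and 614 for pop-1, while the gene-body peaks of mom-1 and pop-1 rank higher in replicate 3.

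Set among all nuclear thresholded peaks, the signals of the 6 spanned much of the range. The mom-1 upstream peak was stronger than 91.1% of them, the hmp-2 peak than 70.0% and the vang-1 peak than 54.1%. The pop-1 intron and upstream peaks were stronger than 30.6% and 21.1%, and the mom-1 intron peak than 8.91%. In the order of best peaks, mom-1 came before hmp-2, vang-1 and pop-1 in the combined list and in replicate 1, and in replicate 3 vang-1 (rank 282) and pop-1 (rank 285, its snoRNA peak) were almost level. The 2 replicates give no interval for these differences.

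Annotated non-coding RNA genes lay within 100 bp of 4 of the 6 summits: a tRNA gene for the mom-1 upstream peak, a snoRNA gene for the pop-1 intron peak and ncRNA genes for the upstream peaks of vang-1 and pop-1. Over all nuclear thresholded summits the share with any gene that is not protein-coding within 100 bp was 55.6% (343 of 617), with 31.1% at tRNA genes, 9.72% at snoRNA genes and 35.2% at ncRNA genes. The hmp-2 peak and the mom-1 intron peak had none. Whether a summit belongs to the RNA gene or to the protein-coding gene was not tested.

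The base composition of the 6 summit windows varied less over 101 bases than over the 201 bases that include them. The G+C share of the 101 bases ranged from 47.5% at the mom-1 upstream summit to 54.5% at vang-1, with a mean of 51.0% ± 2.85 (SD, n = 6 windows). Over 201 bases it ranged from 40.8% to 54.7%, with a mean of 48.1% ± 5.36 (SD, n = 6 windows). Over 101 bases, all nuclear thresholded summits had 50.2% ± 7.90 (SD, n = 617 windows) and the 5′ ends of all protein-coding genes 36.1% ± 6.90 (SD, n = 19973 windows). Over 201 bases these were 47.1% ± 6.74 and 36.4% ± 5.68 (SD, same windows), so in both the wider window varied less. A run of 14 identical bases lay in the pop-1 intron window, and the longest run in the other windows was 4 or 5.

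The core of the Sox motif, searched as ACAANG on both strands, was in none of the 6 windows (0 of 6, which allows a share of up to 50%). It was in 15.7% of all nuclear thresholded windows and in 18.6% of windows at 5′ ends. The TCF core, searched as CTTTGA on both strands, was likewise in 0 of the 6, against 2.59% and 6.59%. Widening the search to 100 bp on either side found neither motif at the 6 summits. At that width 30.8% of all nuclear thresholded windows held the Sox core and 7.13% the TCF core. The B box of tRNA genes, searched as GTTCGANNC on both strands, was within 100 bp of the mom-1 upstream summit and not within 50 bp of any of the 6. Of all nuclear thresholded summits, 26.9% had it within 100 bp and 17.5% within 50 bp. Of those at a tRNA gene, 73.4% had it within 100 bp. The A box, searched as TNGNNNAGT on both strands, matched on the minus strand within 50 bp of the vang-1 summit. It matched in 32.4% of all nuclear thresholded windows and 14.9% of windows at 5′ ends. The B box and A box matches lay at different summits, so no overlap between motifs could arise. A match is a match of letters, not a bound site.

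In the same kind of window, 2 of 30 other Wnt and polarity genes had a thresholded summit (6.67%), where 3.96% of all 19973 protein-coding genes did. The members themselves, 4 of 4, were chosen for it. At least 2 thresholded summits lay in the windows of mom-1 and pop-1 and of 1 of the 30 others, against 0.34% of all genes. The members were chosen for having at least 1. Of the 790 genes with at least 1, 68 had 2 or more. Any peak of the combined list was present for 27 of the 30 others and for 65.0% of all genes. The median best rank was 7172 among the 30 and 17211 among all genes, with genes without a peak placed last, while the members had 250.0. Among genes with a peak alone, it was 5514 for the others and 8560 for all genes. Windows of long genes hold more summits, and the windows of the members, from 6790 to 11069 bp, were longer than the median of 5027 bp. Those of the 30 others, from 5198 to 25414 bp, were all longer than it too, and the comparison was not matched for length.

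The 2 other genes were lit-1 and cam-1, and their summits lay in gene bodies. lit-1 encodes the Nemo-like kinase that lowers nuclear POP-1, and its window of 25414 bp held 4 thresholded peaks, at ranks 360, 440, 517 and 628, from 11267 to 20583 bp past the 5′ end. cam-1, the gene of the Ror receptor tyrosine kinase, had a peak at rank 501 (signal 169) in an intron, 1333 bp past the 5′ end, which ranked 1087 in replicate 1 and 403 in replicate 3. Neither gene had an RNA gene within 100 bp of these summits. None of the 30 had a thresholded summit in the 3000 bp upstream of the 5′ end, where 2.73% of all genes did, so this count is near the background. All 4 members had 1, for which they were chosen.

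The next genes by combined rank were axl-1, dsh-1, fmi-1, mom-4 and mig-1. axl-1, an Axin gene of the destruction complex, ranked 855, with a summit 2386 bp upstream that was 199 bp from the 5′ end of sec-12. dsh-1, a Dishevelled gene, ranked 1055 (1179 bp upstream, at 2 ncRNA genes), and fmi-1, the Flamingo cadherin gene, ranked 1404 (613 bp upstream). mom-4, a MAP kinase kinase kinase gene that acts with lit-1, ranked 1813, and the Frizzled gene mig-1 ranked 2614. Among the 5 Wnt ligand genes lin-44 came first at rank 4121, followed by mom-2 at 5514. The other beta-catenin genes were lower than hmp-2: wrm-1 ranked 3518, sys-1 ranked 11874 and bar-1 had no combined peak. mig-14, the Wntless gene that works with mom-1 in ligand secretion, ranked 2766 in the combined list but 360 in replicate 3 and 4843 in replicate 1.

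In the replicates taken singly, 1 of the 30 others (lit-1) had a peak among the 634 strongest of replicate 1 in its window, where 3.96% of all genes did. In replicate 3 there were 3 of the 30 (lit-1, cam-1 and mig-14), where 3.65% of all genes did. All 4 members had such a peak in each replicate, but they were chosen for strong peaks of a list made from both. The cadherin-catenin partners of HMP-2 were looked at as well. The cadherin gene hmr-1 had a thresholded peak at rank 633 inside its long window of 61913 bp, the alpha-catenin gene hmp-1 ranked 4965 and the p120 catenin gene jac-1 ranked 1574.

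**Figure D3:**
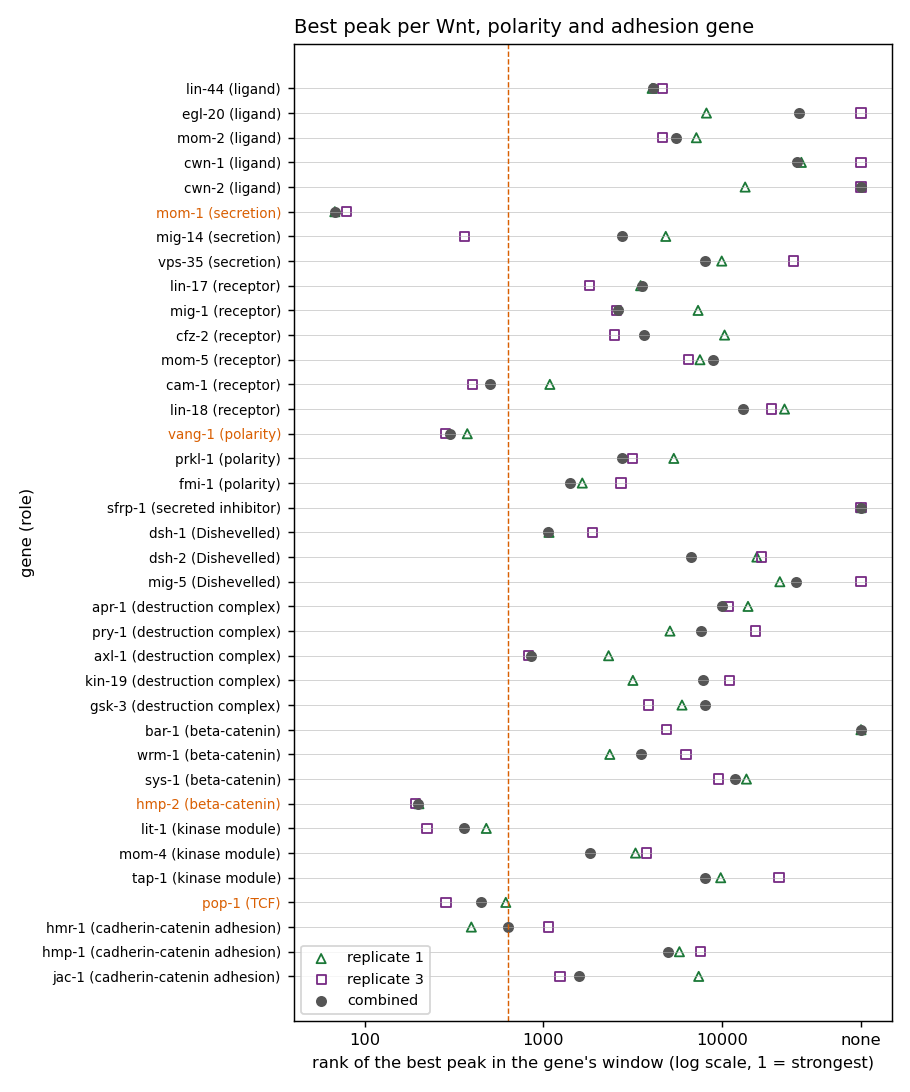
Rank of the best peak in the window of each listed gene (horizontal axis, log scale, strongest at the left) in the combined list, replicate 1 and replicate 3; "none" means no peak in the window and the dashed line is rank 634. The members (orange names), which were chosen for strong peaks, lie left of the line in all 3 lists, from rank 68 to 616, as does lit-1. The gene cam-1 does so in the combined list and replicate 3, and mig-14 in replicate 3 alone. The gene hmr-1 does so in the combined list and replicate 1.

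The genes most like each member in the rank of their best peak were found by distance over the log10 ranks in the 3 lists, among 10349 genes with a peak in all of them. For mom-1 they were egg-5, with ranks 72, 62 and 95 in the combined list, replicate 1 and replicate 3 (distance 0.093), and cysl-2 and dhs-8, which share a peak (ranks 75, 82 and 72). hmp-2 was nearest to C04C11.25 (197, 200 and 194; distance 0.00538), then to the Src kinase gene src-1 and to K05F1.6. vang-1 was nearest to lim-8 (282, 394 and 283; distance 0.0356), then to mif-2 and snr-4. pop-1 was nearest to F08G2.5 (458, 580 and 294; distance 0.0316), then to F52G3.1 and F52G3.7. No single pop-1 peak holds the ranks compared. They are those of the intron peak in the combined list and replicate 3 (446 and 285) and of the upstream peak in replicate 1 (616). The likeness is over 3 lists that share their reads and says nothing of function.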

How the data were processed

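The authors deposited 4 narrowPeak lists on ce11, per the labels. Lists of peaks and background were made from replicate 1, replicate 3 and both together, each with the same further file, which also went into the control-normalized signal, and the thresholded list from these by irreproducible discovery rate (IDR) analysis, per the deposited README files. Not given in the sources used here: peak caller, aligner, IDR software and threshold. Column 7 is the signal as deposited by the authors, with unstated scaling. Column 9 is a −log10 q-value as deposited, and column 10 the summit's offset.

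On checking, the thresholded peaks equalled the 634 strongest combined peaks. Each had a −log10 q of 1.92, the maximum, as did 791 combined peaks in all. Positions are 1-based on WBcel235, the same sequence as ce11 (0 nuclear peaks ended past a chromosome), with Ensembl release 115 genes and RefSeq sequence. Overlap meant 1 bp or more. Window assignment was tested on planted summits. Python 3.11.15, pandas 2.3.3, numpy 2.4.6 and matplotlib 3.10.9 were used. The list held 34 Wnt and polarity genes and 3 adhesion genes, and all 37 symbols matched.

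Named genes are the members, genes that hold or lie nearer to their thresholded summits, listed genes with a thresholded summit or the 5 next best ranks, and 3 genes of most similar ranks per member; those set beside a member for its step, and the nearest genes or RNA genes at weaker peaks, were added after values were seen. The members, lists and motifs were chosen with earlier results of these data known. No test was made, since the members were chosen by these peaks. The replicates are labelled as separate biological samples. The sequence of the mom-1 upstream peak is not reported here.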

Additional observations from a re-analysis of the deposited data

How the results depend on the processing

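All 4 members kept a thresholded summit with windows of 1500 bp upstream to 500 bp downstream, of 3000 bp upstream without the gene body and of 5000 bp upstream, without the tRNA, snoRNA and snRNA peaks (mom-1 then through its intron peak alone), and in each replicate alone (4 without replicate 1 and 4 without replicate 3). With signals above the median 3 did, without pop-1. Giving each summit only to the nearest 5′ end left 2, vang-1 and pop-1. The count among the 30 other Wnt and polarity genes, 2, became 0 with the window from 1500 bp upstream to 500 bp downstream (2.17% of all genes), 0 without the gene body (2.73%) and 0 with signals above the median (1.99%), where the share of all genes also fell from 3.96%, and it ranged from 1 without replicate 3 to 3 without replicate 1. The 4 member peaks overlapping strong peaks of both replicates became 3 with 50% reciprocal overlap and 4 with summits within 100 bp, and 5 overlapped any peak of both full lists. The summit lay inside the RNA gene for 2 of the 4 peaks at RNA genes. The B box was found at 1 summit within 100 bp and at 0 within 50 bp. No paired analysis was possible because there was 1 group and no test. The unknown depth leaves the ranks of single peaks without an interval, and a peak absent from a list of 30000 may have fallen below its end.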
